A study of Mus musculus with 10 samples.

Results

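Integrins and laminins are a receptor family and one of its ligand families. The genes were taken by name from the deposited expression table: 18 integrin alpha subunits, 8 integrin beta subunits and 11 laminin chains, 37 of the 56748 genes listed, in all 10 libraries. RNA of 10 mouse gastric tumours had been sequenced, with 1 library per tumour, and the comparison asked how the 5 inflamed-type tumours differ from the 5 desert-type tumours. The inflamed tumours carried the genotype Tff1-CreERT2;Apcfl/fl;Trp53fl/fl, that is, floxed Apc and Trp53 with a tamoxifen-dependent Cre recombinase under Tff1, a gene of gastric surface mucous cells. The desert tumours were orthotopic allografts, placed in the stomach, with wild type given as their genotype. The sources used here do not say whether wild type names the host or the grafted cells, how many lines were grafted, which alterations those cells carry, or the age of the mice. The 2 tumour types also differ in genotype and in model, and these cannot be told apart.

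Integrins are cell-surface receptors made of 1 alpha and 1 beta subunit, and the pairing sets the ligand: basement membrane laminins, collagens, proteins with an arginine-glycine-aspartate motif, or counter-receptors on other cells. Laminins are trimers of an alpha, a beta and a gamma chain that polymerise into the sheet of the basement membrane under epithelia and around vessels and muscle. In the stomach, epithelial cells sit on laminin through integrins, and leukocytes use their own integrins to leave vessels and to stay in the mucosa. A subunit or chain reaches the surface or the matrix only as part of an assembled dimer or trimer, which gene-level RNA does not measure.

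Of the 37 genes, 31 reached a mean of 0.5 FPKM (reads scaled by gene length and library size) over the 10 libraries and were tested with limma on log2(FPKM + 1). With adjusted p under 0.05 as the threshold, 20 were higher and 4 lower in inflamed tumours, 7 did not pass and 6 were below the filter. Of all 16750 tested genes 62.2% passed, 31% higher and 31.2% lower. The integrins held 16 higher, 2 lower, 3 that did not pass and 5 untested, and the laminins 4 higher, 2 lower, 4 that did not pass and 1 untested. Genes that are high in only 1 group pass the filter through that group, so these counts support nothing by themselves. The median log2 difference (inflamed minus desert) was 0.82 over the 21 tested integrins and 0.14 over the 10 tested laminins, beside -0.00716 over all tested genes. Between the groups 15 of the tested members did not overlap upwards and 4 downwards, where 48.9% of all tested genes did not overlap, 24.4% in each direction. Itgb6 stood at rank 387 from the top of all tested genes by difference, and Lama4, the member that fell most, at rank 427 from the bottom.

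**Figure D1:**
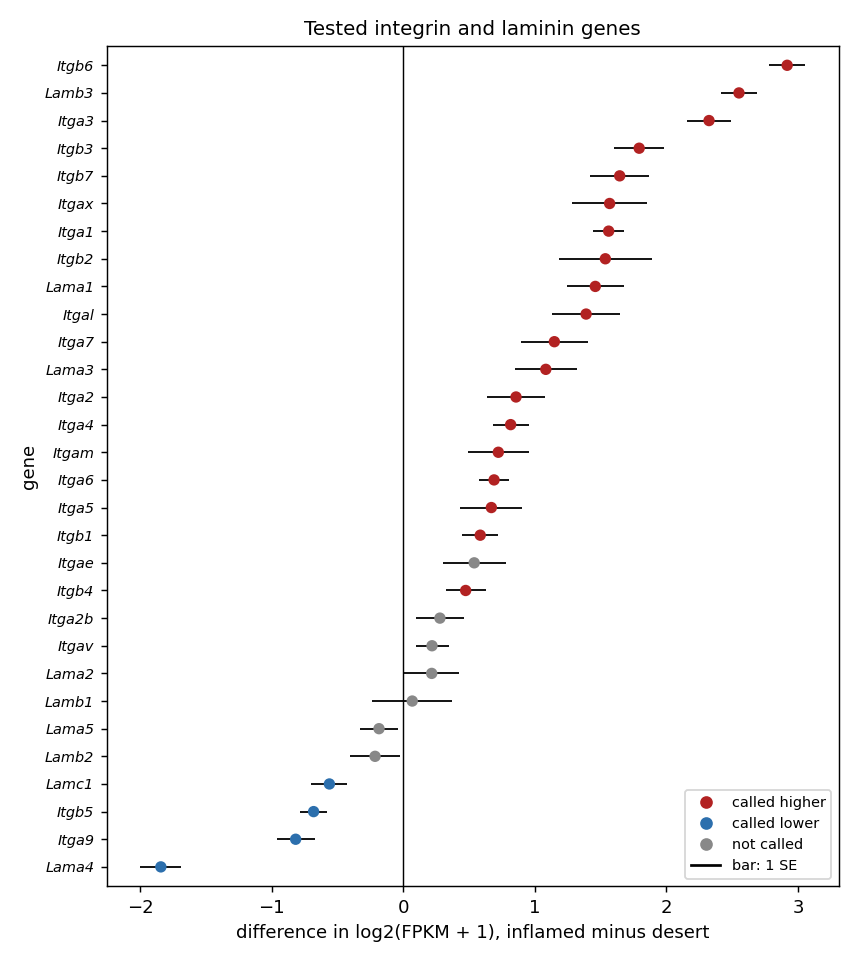
Difference in log2(FPKM + 1), inflamed minus desert, for 30 tested integrin and laminin genes (points) with 1 standard error (bars), coloured by the limma call. Itgb6 stands at 2.92 and Lamb3 at 2.55, and the 4 genes called lower run from Lamc1 at -0.56 to Lama4 at -1.84.

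Libraries held 14148147 to 16951640 reads in genes, and the groups overlapped in depth. Epithelial markers were present in both tumour types (Epcam, Krt8, Krt18, Krt19 and Cldn7 summed to 3110 to 5993 FPKM (inflamed) and 1376 to 2094 FPKM (desert), 3 of 5 higher), so the desert tumours hold epithelial RNA. Gastric gland markers, which check the stomach label, were high in the inflamed tumours and near 0 in the desert tumours (5 genes, summed 7597 to 41740 FPKM against 0.358 to 9.02 FPKM, 5 of 5 higher). Cartilage markers summed to 0.916 to 1.26 FPKM (inflamed) and 372 to 604 FPKM (desert). Of the 5, 3 (Comp, Snorc and Col2a1) were lower in inflamed tumours. Acan and Matn3 were below the filter: Acan averaged 0.0873 FPKM (inflamed) and 0.0227 FPKM (desert), and Matn3 0.0364 and 0.442 FPKM. In bulk tissue, fewer cells of a type and less RNA per cell cannot be told apart, which holds for every difference given here. Rescaling to TPM moved the median log2 difference of all tested genes to -0.282, and median-of-ratios scaling to 0.011. The FPKM of all genes summed to 280795.3 to 356133.5 in inflamed and 236900.7 to 269525.4 in desert libraries. TPM divides by these sums, so it lowers inflamed values relative to desert ones over all genes. TPM values are larger than FPKM here and also had 1 added, so differences of some low genes grew (Lama1 from 1.46 to 2.62).

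Windows at start sites of 4 members are shown to compare those with and without an AP-1-like motif in genes called in opposite directions. Lamb3, Itgb6 and Itga3 were higher in inflamed and Itga9 higher in desert tumours. The windows of Itga3 and Itga9 were chosen because they hold the motif, and those of Lamb3 and Itgb6, which lack it, because these genes differed widely. Each line gives 250 bases before and 50 after an annotated RefSeq start site on the gene's own strand, build GRCm38.p6. Capitals mark TGANTCA, where N is any base, a pattern that includes the motif of AP-1 (Jun and Fos) transcription factors. N is A in the Itga3 window and C in the Itga9 window. The windows are chr1:193301744-193302043 (Lamb3, plus strand), chr2:60722554-60722853 (Itgb6, minus), chr11:95069149-95069448 (Itga3, second start, minus) and chr9:118711442-118711741 (Itga9, plus). Whether the Itga9 window lies at the main start of its gene was not checked.
Lamb3: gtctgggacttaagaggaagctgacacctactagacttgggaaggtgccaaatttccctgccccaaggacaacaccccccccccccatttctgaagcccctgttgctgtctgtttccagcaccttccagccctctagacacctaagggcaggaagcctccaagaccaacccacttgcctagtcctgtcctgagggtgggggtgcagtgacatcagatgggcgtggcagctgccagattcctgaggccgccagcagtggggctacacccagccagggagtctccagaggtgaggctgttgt
Itgb6: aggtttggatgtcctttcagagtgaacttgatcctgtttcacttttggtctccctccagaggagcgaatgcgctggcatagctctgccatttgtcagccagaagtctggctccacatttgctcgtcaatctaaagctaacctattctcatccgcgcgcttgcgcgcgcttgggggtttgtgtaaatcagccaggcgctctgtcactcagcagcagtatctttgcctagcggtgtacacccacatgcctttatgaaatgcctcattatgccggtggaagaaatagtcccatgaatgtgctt
Itga3: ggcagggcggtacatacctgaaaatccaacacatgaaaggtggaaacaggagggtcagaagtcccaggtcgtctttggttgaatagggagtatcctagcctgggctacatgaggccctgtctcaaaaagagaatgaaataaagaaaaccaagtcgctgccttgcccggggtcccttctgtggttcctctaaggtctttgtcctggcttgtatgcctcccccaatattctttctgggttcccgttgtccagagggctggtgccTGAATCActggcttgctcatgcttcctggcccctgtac
Itga9: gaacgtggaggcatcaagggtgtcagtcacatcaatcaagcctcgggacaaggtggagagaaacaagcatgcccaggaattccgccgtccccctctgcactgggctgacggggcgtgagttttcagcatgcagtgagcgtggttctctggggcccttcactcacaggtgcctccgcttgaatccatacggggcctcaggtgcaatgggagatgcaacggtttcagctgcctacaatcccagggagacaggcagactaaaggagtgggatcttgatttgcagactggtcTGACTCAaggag

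RefSeq windows were matched for 23 of the 37 members (26 windows). TGANTCA, searched on both strands, was in 3 of the 26 windows, those of Itga3 (first base 12 bases past the start site), Itga9 (38 bases past it) and Itgax (56 bases before it). The other Itga3 window (chr11:95076665-95076964) lacks these letters, as do the other windows of Lamb3 and Itgb6. It was in 7.81% of all 32817 windows of this length. TATAAA, the core promoter letters, was in none of the 26 member windows on either strand and in 13.6% of all windows. The Itga3 and Itgax genes were higher and Itga9 lower in inflamed tumours. These 3 windows are too few to read a direction from, and any part of AP-1 was not tested.

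Lamb3 and Lama3, a beta and an alpha chain that occur together in a laminin anchoring basal epithelial surfaces, were higher in inflamed tumours. Lamb3, the beta chain (ENSMUSG00000026639, chromosome 1, 192890007 to 193026186 as the deposited table gives it), measured 18.9, 20.6, 20.9, 26.3 and 24.3 FPKM across inflamed tumours 1 to 5, against 2.46, 2.09, 3.39, 3.15 and 3.80 FPKM across desert tumours 1 to 5. Every inflamed tumour was above every desert tumour, and the difference was 2.55 (SE 0.13, limma adjusted p = 6.92e-08). The span of Lamb3 overlaps G0s2 and Hsd11b1 on the other strand. G0s2 was at 2.77 FPKM (inflamed) and 9.71 FPKM (desert) on average, and without strand its reads cannot be separated from those of Lamb3 where exons overlap. Lama3, the alpha chain, measured 4.84, 5.05, 8.23, 5.58 and 7.19 FPKM across inflamed tumours 1 to 5, against 2.17, 1.87, 2.52, 4.83 and 1.20 FPKM across desert tumours 1 to 5. Its difference was smaller (1.08, SE 0.24, limma adjusted p = 0.00212), and desert tumour 4 lay just under the lowest inflamed tumour.

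Per length, Lamb3 was 2.54 to 4.71 times Lama3 in inflamed and 0.652 to 3.16 times Lama3 in desert tumours, and these ranges overlapped.

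Lamc1 was lower in inflamed tumours. Lamc1, the gamma chain of most laminins, measured 23.2, 19.0, 20.5, 12.5 and 17.4 FPKM across inflamed tumours 1 to 5, against 27.0, 27.6, 26.3, 29.7 and 26.0 FPKM across desert tumours 1 to 5. All desert tumours were above all inflamed ones, and the difference was -0.56 (SE 0.14, limma adjusted p = 0.00417; -0.88 after rescaling to TPM). Lamc3, a gamma chain found in skin, nerve and brain, was below the filter, with 1 to 12 reads in inflamed and 2 to 15 reads in desert tumours.

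Of the 5 alpha chains, Lama4 fell. Lama4, the alpha chain of vessel and mesenchymal basement membranes (ENSMUSG00000019846, chromosome 10, 38841511 to 38986184), measured 4.06, 3.20, 3.12, 1.67 and 2.60 FPKM across inflamed tumours 1 to 5, against 12.5, 12.3, 12.2, 15.7 and 11.5 FPKM across desert tumours 1 to 5. The lowest desert tumour was above the highest inflamed tumour, and Lama4 fell by 1.84 (SE 0.16, limma adjusted p = 2.54e-06). Of 5 endothelial markers, 3 (Pecam1, Kdr and Tek) were higher in inflamed tumours, while Cdh5 and Emcn did not pass. The 5 genes summed to 14.4 to 36.5 FPKM (inflamed) and 11.2 to 16 FPKM (desert), ranges that overlapped. Fibroblast markers summed to 58.9 to 171 FPKM and 38.2 to 74.0 FPKM, with 2 of 5 higher in inflamed tumours. The part of vessel or mesenchymal cells in the Lama4 difference was not tested.

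Lama5, the broadest epithelial alpha chain, was the main alpha chain in every tumour. It measured 38.7, 30.7, 33.6, 23.1 and 23.8 FPKM across inflamed tumours 1 to 5, against 30.9, 29.8, 37.2, 34.6 and 35.9 FPKM across desert tumours 1 to 5. The groups overlapped and the difference of -0.18 (SE 0.14) did not pass (limma adjusted p = 0.284), but it was called lower after rescaling to TPM (-0.49, adjusted p = 0.0429). Lama5 made up 66.1% to 75.1% of the alpha chain FPKM in inflamed and 62.5% to 72.8% in desert tumours. The rest differed: Lama4 held 5.38% to 7.89% against 23.1% to 28.4%, and Lama3 9.40% to 19.9% against 2.44% to 8.72%.

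Lama1, an alpha chain of embryonic and some adult epithelial basement membranes, was low in inflamed and near 0 in desert tumours (0.516 to 2.67 and 0.0202 to 0.0436 FPKM; means 1.97 ± 0.856 and 0.0307 ± 0.00987 FPKM, SD, n = 5 each). Its lowest inflamed value was that of tumour 4. The difference was 1.46 (SE 0.22, limma adjusted p = 0.00015) and was 2.62 as TPM, 3.81 with a pseudocount of 0.1 and 5.76 with voom on the recovered reads. Lama1 had only 3 to 8 reads per desert library (76 to 456 per inflamed library), so the size of its difference depends on the scale used. Lama2, the alpha chain around muscle and nerve, was at 0.245 to 1.34 and 0.193 to 0.920 FPKM and did not pass (0.22, limma adjusted p = 0.385; 0.17 as TPM and 0.0053 under quantile normalization).

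Of the beta chains, Lamb3 alone was called. Lamb1 was at 5.31 to 13.8 FPKM (inflamed) and 5.79 to 18.8 FPKM (desert) (0.07, limma adjusted p = 0.857; -0.21 as TPM, adjusted p = 0.636), and desert tumour 4, the highest, was also highest in Lama4. Lamb2, a beta chain of muscle, kidney and synaptic basement membranes, was at 9.63 to 16.5 and 10.5 to 18.1 FPKM (-0.21, limma adjusted p = 0.357; -0.52 as TPM, adjusted p = 0.0647). In shares, Lamb3 made up 38.3% to 63.4% of beta chain FPKM in inflamed and 9.07% to 13.9% in desert tumours. Shares within a library do not depend on how libraries were scaled to each other.

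**Figure D2:**
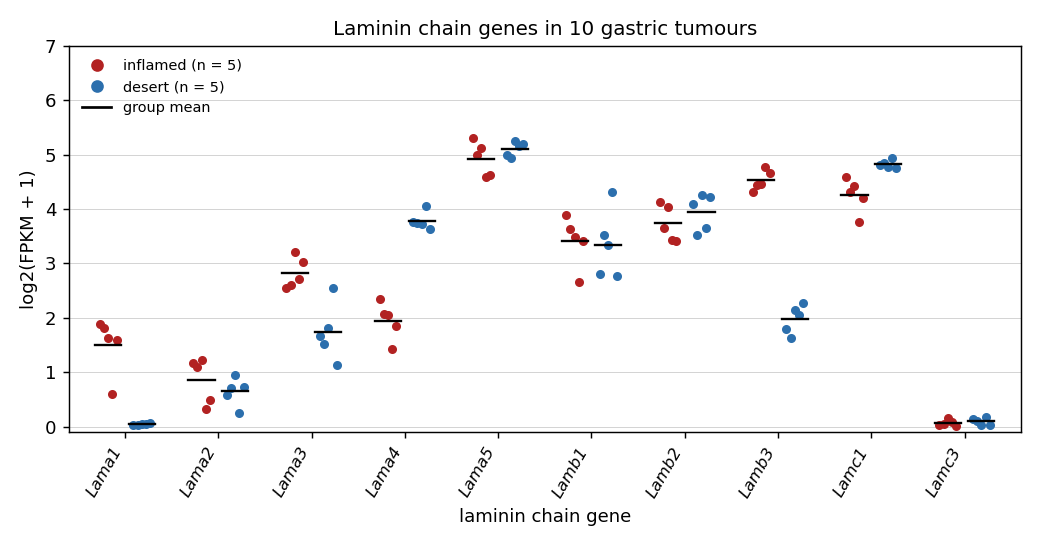
log2(FPKM + 1) of 10 laminin chain genes, with 1 point per tumour (5 inflamed, 5 desert) and a bar at the group mean. Lamb3 separates the groups upwards and Lama4 downwards, while Lama5, Lamb1 and Lamb2 overlap.

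**Figure D3:**
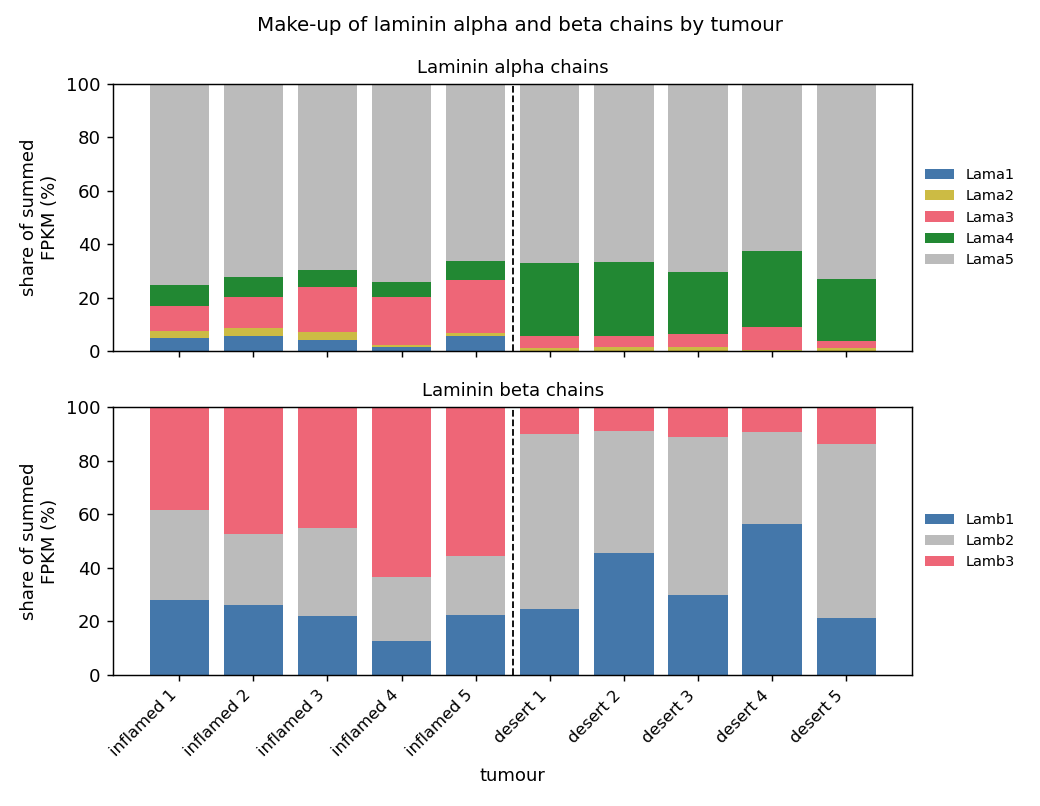
Share of each gene in the summed FPKM of the laminin alpha (top) or beta chains (bottom), in percent, in each of the 10 tumours, inflamed left and desert right of the dashed line. Lamb3 takes 38.3% to 63.4% of the beta chains in inflamed and 9.07% to 13.9% in desert tumours, and Lama5 is the largest alpha chain in all 10.

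The receptors of laminin were higher in inflamed tumours. Itga3, the alpha subunit that with Itgb1 binds the epithelial laminins (ENSMUSG00000001507, chromosome 11, 94935300 to 94967627), measured 30.7, 37.6, 39.9, 47.8 and 50.1 FPKM across inflamed tumours 1 to 5, against 10.3, 8.25, 6.56, 5.65 and 6.54 FPKM across desert tumours 1 to 5. The groups did not overlap, at a ratio of 5.53 between the means (difference 2.32, SE 0.17, limma adjusted p = 7.24e-07). Itga6, which pairs with Itgb4 in hemidesmosomes or with Itgb1, measured 53.4, 57.6, 57.0, 59.4 and 72.0 FPKM across inflamed tumours 1 to 5, against 45.1, 32.7, 39.0, 33.4 and 34.0 FPKM across desert tumours 1 to 5. Itga6 also separated the groups, by less (0.69, SE 0.11, limma adjusted p = 0.000321; 0.40 after rescaling to TPM, adjusted p = 0.00627).

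Itga6 therefore stayed the most abundant laminin-binding alpha subunit in every tumour, while Itga3 came closer to it in inflamed tumours: per length it was 0.575 to 0.805 times Itga6 there and 0.168 to 0.252 times Itga6 in desert tumours. Itgb4, the long-tailed beta subunit that links to keratin filaments, measured 35.0, 38.0, 38.1, 59.7 and 40.3 FPKM across inflamed tumours 1 to 5, against 33.8, 25.8, 28.4, 25.7 and 35.3 FPKM across desert tumours 1 to 5. Desert tumour 5 lay just above inflamed tumour 1, and the difference of 0.47 (SE 0.15, limma adjusted p = 0.0178) did not hold as TPM (0.19, adjusted p = 0.159). The highest Itgb4 value was in inflamed tumour 4, which also had most basal and squamous keratin RNA: the 4 markers Krt5, Krt14, Trp63 and Krt13 summed to 204 FPKM there and to at most 6.09 FPKM in any other tumour. The part of those cells in the Itgb4 value was not tested. Itga6 was 0.996 to 1.79 times Itgb4 in inflamed and 0.962 to 1.37 times Itgb4 in desert tumours.

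Itgb1, the beta subunit shared by most matrix receptors (ENSMUSG00000025809, chromosome 8, 129412135 to 129459681), was the most abundant member in every tumour. It measured 117, 126, 136, 111 and 121 FPKM across inflamed tumours 1 to 5, against 99.3, 99.4, 68.9, 79.6 and 64.2 FPKM across desert tumours 1 to 5. The groups did not overlap, and the difference of 0.59 (SE 0.13, limma adjusted p = 0.00292) was no longer called after rescaling to TPM (0.29, adjusted p = 0.114). Itga7, the laminin receptor of muscle, was at 1.67 to 5.81 FPKM (inflamed) and 0.239 to 1.15 FPKM (desert) (1.15, SE 0.25, limma adjusted p = 0.00218; 2.14 with voom). Its highest values were in inflamed tumours 4 and 3, the 2 with most smooth muscle RNA. There 5 markers (4 of 5 higher) summed to 794 and 392 FPKM. They summed to 71.4 to 183 FPKM in the other inflamed and 7.35 to 40.3 FPKM in the desert tumours. The highest desert sum was that of tumour 3, where Des alone was at 35.6 FPKM. Skeletal muscle markers (Acta1, Myh4, Ckm and Tnnt3, none called) summed to 249 FPKM in desert tumour 3 and 68.3 FPKM in desert tumour 2. In any other tumour they summed to at most 2.58 FPKM. Among desert tumours, Itga7 was highest in tumours 3 and 2 (1.15 and 0.752 FPKM). The part of smooth or skeletal muscle in the Itga7 difference was not tested. Mettl7b overlaps the Itga7 span on the other strand, at 1.34 FPKM on average in inflamed tumours and listed at 0 in desert tumours, and reads of both cannot be separated without strand where exons overlap.

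Of the 4 collagen receptors, Itga1 and Itga2 were higher and the other 2 were below the filter. Itga1, found on mesenchymal, muscle and activated T cells, was at 2.88 to 4.27 FPKM (inflamed) and 0.417 to 0.886 FPKM (desert) (1.56, SE 0.12, limma adjusted p = 1.19e-06; 2.78 with voom). The gene Pelo lies within its span on the same strand, at 2.72 and 1.78 FPKM on average. Gm49395 overlaps it on the same strand (0.582 and 0.112 FPKM) and Gm10734 on the other strand (1.71 and 0.262 FPKM). Where exons overlap, reads of Itga1 and Gm10734 cannot be separated without strand. Itga2, found on epithelium and platelets, was at 8.93 to 17.6 and 4.07 to 9.93 FPKM (0.86, SE 0.22, limma adjusted p = 0.00579); the groups overlapped through inflamed tumour 4, and as TPM it was not called (0.63, adjusted p = 0.0723). Itga2 was the largest collagen-binding subunit in all tumours, with 66.1% to 79.0% of their summed FPKM in inflamed and 79.7% to 89.0% in desert tumours. Itga11, a fibroblast receptor, was at 0.320 to 1.16 and 0.0508 to 0.185 FPKM. Itga10, the receptor of cartilage cells, was at 0.332 to 0.574 and 0.386 to 0.71 FPKM, and its groups overlapped.

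The beta subunits that pair with Itgav changed in make-up while Itgav itself did not pass. Itgav, the common alpha subunit of receptors for vitronectin and for latent TGF-beta, was at 9.55 to 12.2 FPKM (inflamed) and 7.28 to 11.9 FPKM (desert) (0.22, SE 0.13, limma adjusted p = 0.15; -0.06 after rescaling to TPM). Itgb6, the epithelial partner that releases active TGF-beta from its latent form (ENSMUSG00000026971, chromosome 2, 60428636 to 60552987), measured 7.94, 8.14, 10.8, 12.3 and 11.3 FPKM across inflamed tumours 1 to 5, against 0.275, 0.712, 0.402, 0.532 and 0.363 FPKM across desert tumours 1 to 5. The groups lay far apart, with a ratio of means of 22.1 (difference 2.92, SE 0.14, limma adjusted p = 3.18e-08). With voom on the recovered reads, which adds no 1 to FPKM, the difference was 4.52 for Itgb6 and 2.83 for Itgb3.

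Itgb5, the vitronectin receptor partner (ENSMUSG00000022817, chromosome 16, 33650035 to 33769708), went the other way. It measured 31.3, 31.2, 30.5, 27.5 and 35.6 FPKM across inflamed tumours 1 to 5, against 62.7, 48.0, 47.8, 48.1 and 47.5 FPKM across desert tumours 1 to 5. The groups did not overlap, 4 of the desert tumours lay within 1 FPKM of each other, and Itgb5 fell by 0.68 (SE 0.10, limma adjusted p = 0.000166). Itgb3, the partner found on platelets, osteoclasts and growing vessels, measured 6.94, 6.21, 5.57, 2.86 and 4.07 FPKM across inflamed tumours 1 to 5, against 0.784, 1.03, 0.484, 0.633 and 0.679 FPKM across desert tumours 1 to 5. It separated the groups (1.79, SE 0.19, limma adjusted p = 1.26e-05), lowest among inflamed tumours in tumour 4. Itgb8, which also binds latent TGF-beta, was below the filter at 0.166 to 0.486 and 0.0354 to 0.293 FPKM.

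Among Itgb3, Itgb5, Itgb6 and Itgb8, the partners confined to Itgav apart from the platelet pairing of Itgb3, Itgb5 made up 64.2% to 69.5% of the summed FPKM in inflamed and 95.9% to 98.3% in desert tumours. Itgb6 made up 17.1% to 28.7% against 0.431% to 1.42%, and Itgb3 6.67% to 14.9% against 0.99% to 2.05%. The sums were close, at 46.8 ± 3.04 and 52.2 ± 6.56 FPKM (SD, n = 5 each). Itga2b, the platelet partner of Itgb3, was at 0.489 to 1.83 FPKM (inflamed) and 0.330 to 0.812 FPKM (desert) and did not pass (0.28, limma adjusted p = 0.201). Its difference was 0.11 without inflamed tumour 4, the highest, and 0.07 under quantile normalization. Platelet markers summed to 2.98 to 8.90 and 2.09 to 3.62 FPKM (2 of 5 higher). The platelet receptor genes Gp1bb and Gp6 were not tested. They were listed at 0 in all inflamed tumours and reached at most 0.0298 and 0.00893 FPKM in desert tumours.

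Itga5, the fibronectin receptor that pairs with Itgb1, was at 9.35 to 18.8 FPKM (inflamed) and 5.97 to 12.7 FPKM (desert). The groups overlapped, and the difference of 0.67 (SE 0.24, limma adjusted p = 0.0286) lay near the threshold. It was not called when inflamed tumour 1, 2 or 3 was left out (limma adjusted p = 0.0687, 0.0611 and 0.0659). The same held for desert tumour 3, 4 or 5 (limma adjusted p = 0.0695, 0.0618 and 0.0665). The difference was 0.56 to 0.63 in those omissions. Itga5 was also not called as TPM (0.43, limma adjusted p = 0.191) or with no filter (limma adjusted p = 0.053). Itga8, which binds nephronectin in smooth muscle and mesenchyme, was below the filter at 0.274 to 0.870 FPKM (33 to 108 reads) in inflamed and 0 to 0.0973 FPKM (0 to 12 reads) in desert tumours. Itga9, a receptor for tenascin, osteopontin and Vcam1, was 1 of the 2 integrins that fell: it measured 4.31, 3.43, 3.84, 3.77 and 3.15 FPKM across inflamed tumours 1 to 5, against 9.69, 9.13, 5.50, 6.49 and 6.25 FPKM across desert tumours 1 to 5. The groups did not overlap, and Itga9 fell by 0.82 (SE 0.15, limma adjusted p = 0.000538). Itga4, its close relative on leukocytes, went up from 0.173 to 0.471 FPKM in desert to 0.733 to 1.72 FPKM in inflamed tumours (0.82, SE 0.14, limma adjusted p = 0.000347).

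**Figure D4:**
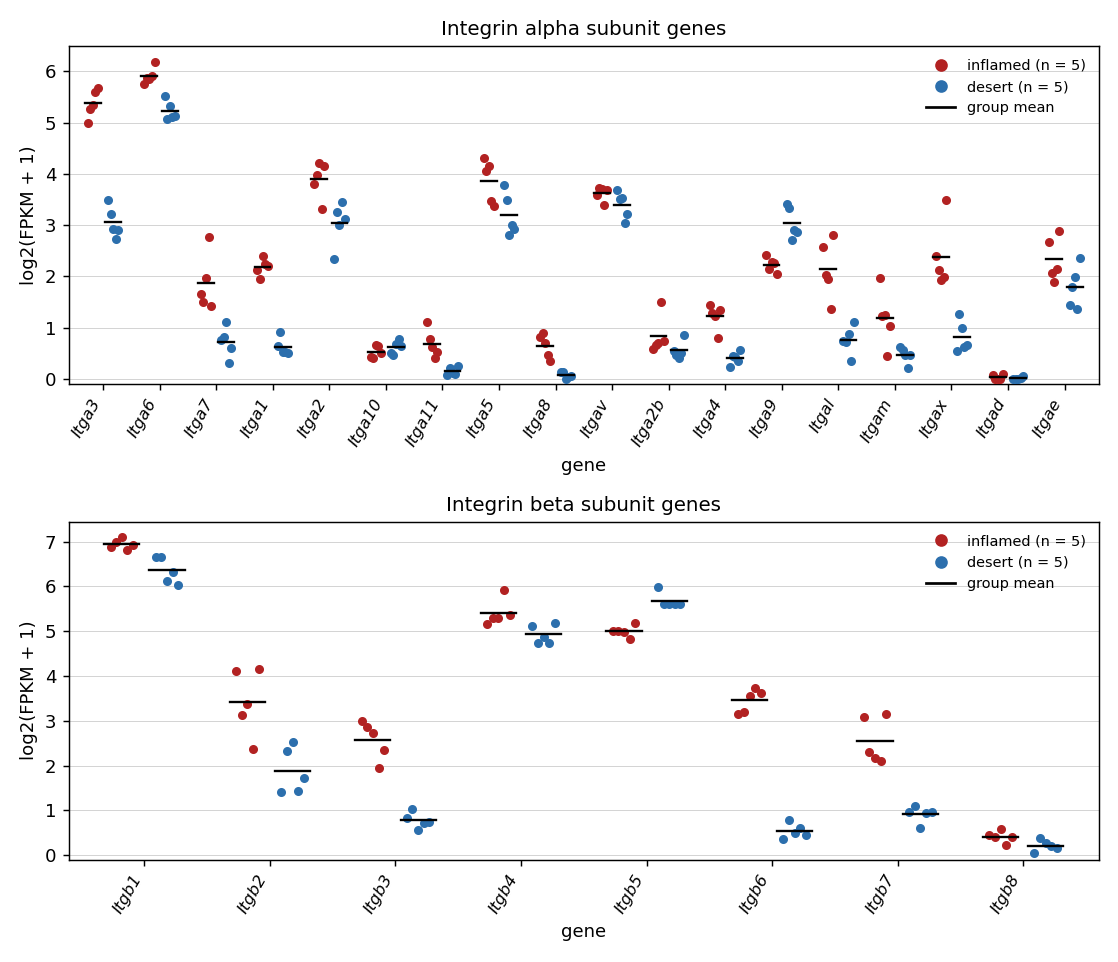
log2(FPKM + 1) of the 18 integrin alpha (top) and 8 integrin beta subunit genes (bottom), with 1 point per tumour (5 inflamed, 5 desert) and a bar at the group mean. Itga3 and Itgb6 separate the groups widely, Itgb5 and Itga9 are higher in desert tumours, and Itgav overlaps.

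Of the leukocyte integrins, Itgb2, Itgb7, Itgal, Itgax, Itgam and Itga4 were called higher in inflamed tumours, Itgae did not pass and Itgad was not tested. Itgb2, a beta subunit of leukocytes that pairs with Itgal, Itgam, Itgax or Itgad, measured 16.2, 7.70, 9.30, 4.15 and 16.7 FPKM across inflamed tumours 1 to 5, against 1.67, 3.99, 4.76, 1.71 and 2.31 FPKM across desert tumours 1 to 5. The groups overlapped, since inflamed tumour 4 lay under desert tumour 3, and the difference was 1.54 (SE 0.35, limma adjusted p = 0.0029). Itgb7, the mucosal homing subunit, measured 7.50, 3.90, 3.47, 3.27 and 7.87 FPKM across inflamed tumours 1 to 5, against 0.941, 1.13, 0.516, 0.930 and 0.952 FPKM across desert tumours 1 to 5. It did not overlap between the groups (1.65, SE 0.22, limma adjusted p = 8.23e-05).

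The alpha partners of Itgb2 were called higher except Itgad, which had 0 to 5 reads in any tumour. Itgal, the lymphocyte partner, was at 1.58 to 6.0 and 0.264 to 1.17 FPKM (1.39, SE 0.26, limma adjusted p = 0.000699). Itgax, the dendritic cell and macrophage partner, was at 2.80 to 10.2 and 0.461 to 1.41 FPKM (1.57, SE 0.28, limma adjusted p = 0.000635). Itgam, the neutrophil and macrophage partner, was at 0.366 to 2.93 and 0.157 to 0.545 FPKM; its groups overlapped, and the call (0.72, SE 0.23, limma adjusted p = 0.019) was lost under quantile normalization (0.52, adjusted p = 0.071). The shares of Itgam and Itgal in the summed alpha partners overlapped between the tumour types (6.03% to 23.9% against 16.2% to 32.4% for Itgam, and 32.3% to 40.8% against 25.5% to 54.4% for Itgal).

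Itgae, the subunit that holds T cells to epithelial E-cadherin, was at 2.72 to 6.40 FPKM (inflamed) and 1.58 to 4.15 FPKM (desert) and did not pass (0.54, SE 0.24, limma adjusted p = 0.0692). It passed when inflamed tumour 3 was left out (adjusted p = 0.0419) and when desert tumour 5 was (adjusted p = 0.0254). Its partner Itgb7 was lower than Itgae in every desert tumour. The mitotic kinase gene Haspin lies inside the Itgae span on the other strand, at 4.03 FPKM (inflamed) and 8.02 FPKM (desert) on average, and reads of the 2 genes cannot be separated without strand where exons overlap.

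Ptprc, the pan-leukocyte gene, was at 2.86, 2.26, 2.03, 1.17 and 4.24 FPKM across inflamed tumours 1 to 5, against 0.327 to 1.03 FPKM in desert tumours. Inflamed tumours 1 and 5 were highest and tumour 4 lowest in Ptprc, Itgb2, Itgb7, Itgal and Itga4. Other members had another order: Itgam was second lowest in tumour 5 (1.05 FPKM), and Itgax and Itgae were lowest in tumour 3 (2.80 and 2.72 FPKM). The T cell markers summed to 9.50 to 25.4 FPKM (inflamed) and 0.303 to 1.05 FPKM (desert) (5 of 5 higher). The general and myeloid markers, Ptprc among them, summed to 65.1 to 248 and 56.3 to 189 FPKM (3 of 6 higher; Adgre1, Cd68 and Lyz2 did not pass). With voom the differences were 2.49 for Itgb7, 2.54 for Itgax, 2.41 for Itgal, 2.08 for Itga4 and 1.76 for Itgam. How much of the leukocyte integrin differences is cell number was not tested.

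**Figure D5:**
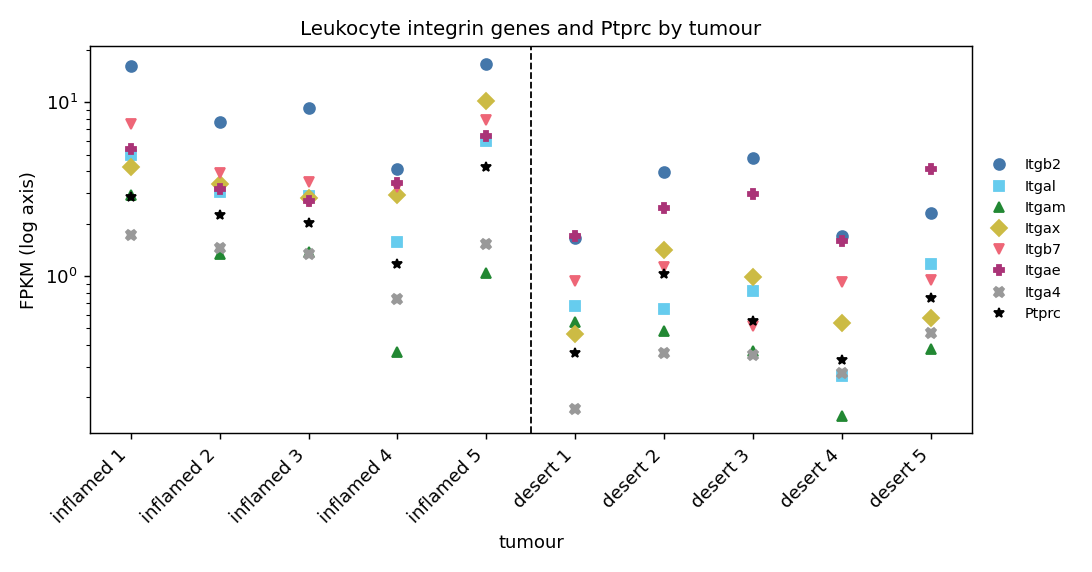
FPKM (log axis) of 7 integrin genes of leukocytes and of the leukocyte marker Ptprc in each of the 10 tumours, with 1 symbol per gene and inflamed tumours left of the dashed line. Itgb2 runs from 4.15 to 16.7 FPKM among inflamed and from 1.67 to 4.76 FPKM among desert tumours.

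Genes that work with these receptors and ligands moved in both directions, as did all tested genes (62.2% called, 31% higher and 31.2% lower). The counts of the lists below therefore support nothing by themselves. Of 19 genes for adaptors of the integrin tail, 5 were higher, 6 lower, 7 did not pass and 1 was not tested (median difference 0.05). Fermt2, a kindlin that activates integrins, fell by 1.91 (6.18 ± 1.25 and 25.8 ± 2.13 FPKM, limma adjusted p = 3.29e-07). Ptk2, the focal adhesion kinase, fell by 0.84 (7.04 ± 0.487 and 13.4 ± 1.26 FPKM, adjusted p = 6.43e-06), and Pxn, the paxillin scaffold, was higher by 1.02 (15.9 ± 1.27 and 7.32 ± 0.270 FPKM, adjusted p = 6.07e-07). Of 14 other basement membrane genes, 6 were higher, 1 lower, 4 did not pass and 3 were not tested (median 0.60). The gene that fell was Smoc2, a calcium-binding matrix protein, at 3.67 ± 0.822 against 113 ± 21 FPKM (-4.61, limma adjusted p = 2.96e-09). Ntn4, a netrin that binds laminin gamma chains and disrupts their network, was at 8.30 ± 0.890 against 3.24 ± 1.86 FPKM (1.27, adjusted p = 0.00425). Col4a1, a chain of the collagen of basement membranes, was at 43.2 ± 16.4 against 21.9 ± 5.83 FPKM (0.90, adjusted p = 0.0158), a call lost after rescaling to TPM (0.62, adjusted p = 0.108).

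Of 6 genes that anchor cells to laminin beside integrins, 3 were higher, 1 lower, 1 did not pass and 1 was not tested (median 0.49). Over all tested genes 62.2% were called. Dag1, dystroglycan, was at 45.2 ± 3.10 against 24.0 ± 3.57 FPKM (0.89, limma adjusted p = 2.36e-05). Bcam, a receptor of the Lama5 chain, went the other way (19.7 ± 5.54 against 33.6 ± 7.07 FPKM; -0.76, adjusted p = 0.00566). Cd151, the tetraspanin partner of laminin-binding integrins, was at 47.5 ± 4.29 against 34.1 ± 7.33 FPKM (0.49, adjusted p = 0.0127), and was not called after rescaling to TPM (0.20, adjusted p = 0.187).

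Of 19 integrin ligands, 5 were higher, 4 lower, 6 did not pass and 4 were not tested (median 0.34), beside 62.2% called over all tested genes. Fn1, the fibronectin bound by the Itga5 receptor, measured 29.7, 22.2, 33.7, 15.6 and 18.5 FPKM across inflamed tumours 1 to 5, against 305, 344, 298, 215 and 218 FPKM across desert tumours 1 to 5. It fell by 3.50 (SE 0.22, limma adjusted p = 2.45e-07). Icam1, the counter-receptor of the Itgal and Itgb2 pair, was at 13.8 ± 5.27 against 0.826 ± 0.399 FPKM (2.96, limma adjusted p = 3.78e-06). Npnt, the nephronectin bound by Itga8, was at 12.9 ± 4.02 against 0.808 ± 0.238 FPKM (2.91, limma adjusted p = 2.08e-07). All ± values here are SD with n = 5 per group.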

How the data were processed

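RNA had been sequenced from 10 gastric tumours (5 inflamed, 5 desert), grouped by the titles in the labels. The authors deposited FPKM values, 1 column per library. Per the submitters' processing notes the build was mm10; the aligner and counter are not given in the sources used here. Total RNA came from a TRIzol extraction, per the labels' protocols. The protocol text speaks of fewer tumours than the 10 deposited; all were used. Whether tumours came from separate animals is not stated, so p-values measure only the spread between these samples. All 37 members were found in GENCODE M21 on the same chromosome, 36 with the same span length but 0 with the same start, so positions are given as deposited, with no build named. FPKM times the deposited gene length gave whole reads for 100% of values, within 0.01 read, and these gave the depth. Strandedness is also not stated there.

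Genes whose mean reached 0.5 FPKM entered limma 3.58.1 (R 4.3.3) as log2(FPKM + 1), a scale that understates differences of low genes. The fit had tumour type as its term, a trend and robust moderation, and two-sided p-values were adjusted by Benjamini-Hochberg over all tested genes; the code was tested on simulated data. Values per tumour were given for members called with no overlap and a mean of at least 5 FPKM in the higher group, or with a mean of at least 20 FPKM over the 10 libraries; Itgb2 was added after its values were seen. Of the other lists, up to 3 called genes of largest difference with at least 5 FPKM in the higher group were named. The members and lists were chosen with earlier results of these data known. A member that enters the counts is not reported here by itself. The gastric gland list was used with 5 genes, as a further symbol was not matched. Alternatives were a pseudocount of 0.1, no filter, a filter of 5 FPKM, TPM, median-of-ratios and quantile scaling, limma without trend and robust moderation, voom on recovered reads (mean 10 or more), a block for tumour number, and omission of each library in turn. Promoter windows came from RefSeq (GRCm38.p6).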

Additional observations from a re-analysis of the deposited data

Results flagged for a closer look

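Each tested member was examined in each group for a tumour that stands apart, by the gap to its nearest neighbour as a share of the group's range (over 0.71 for 5 samples). Of 62 sets 6 passed, where chance gives about 1 in 20. Itgb5 was at 62.7 FPKM in desert tumour 1 and at 47.5 to 48.1 FPKM in the other 4. Itgb4 reached 59.7 FPKM in inflamed tumour 4, against 35.0 to 40.3 FPKM in the others. Lama4 was at 15.7 FPKM in desert tumour 4 and at 11.5 to 12.5 FPKM in the others. Itgax reached 10.2 FPKM in inflamed tumour 5, against 2.80 to 4.27 FPKM in the others. Itga2b was at 1.83 FPKM in inflamed tumour 4 against 0.489 to 0.672 FPKM, and at 0.812 FPKM in desert tumour 5 against 0.330 to 0.454 FPKM. Inflamed tumour 4 was thus the high tumour for Itgb4 and Itga2b, and the calls of Itgb4, Itgb5, Lama4 and Itgax held without any single library.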

How the results depend on the processing

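Of the 31 tested members, 24 kept their side of the threshold in all of the alternatives in which they were tested (19 in all), 7 did not (Itgb1, Itgb4, Itga5, Itga2, Itgam, Lama5 and Itgae, given above), and no called direction reversed. A filter of 5 FPKM leaves fewer genes to test and gave 2784 higher and 3070 lower genes, 8 integrins higher and 2 laminins higher. After rescaling to TPM, 35% of called genes were higher (3769 higher, 6989 lower), against 49.9% (5197 and 5221), with 12 integrins higher and 2 lower and 4 laminins higher and 3 lower. With voom, 10 called members had differences over 1.5 times larger, and with a pseudocount of 0.1, 7 did. With the replicate block (tumour number), 17 integrins were higher and 2 lower, Itgae being added (adjusted p = 0.048), and laminin counts stayed at 4 and 2. The numbers only name tumours of separate models: same-numbered tumours had correlations of -0.0737 to 0.0763 in their deviations from the group means, and 1 of 5 inflamed tumours was closest to its own number. Depth limits Itgad and Lamc3, with at most 15 reads in any library, and Lama1 in desert tumours, with 3 to 8 reads.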
